A study of Mus musculus with 16 samples.

Results

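The genes described here encode the scaffold of the presynaptic active zone: Rims1, Rims2, Rims3, Erc1, Erc2, Bsn, Pclo, Unc13a, Ppfia2 and Ppfia3. They were chosen as all probes whose RefSeq accession maps to one of these symbols. This gave 18 probes for 10 genes, of 55598 probes and 20124 named genes on the array. The cells were mitral cells, which carry the output of the olfactory bulb, from ICR mice at postnatal day 6 (P6) or postnatal day 3 (P3). Kir2.1 cells had received pCAG-EYFP together with pCAG-Kir2.1, which expresses an inwardly rectifying potassium channel and so makes neurons less excitable, by in utero electroporation at embryonic day 12. Control cells had received pCAG-EYFP alone at the same day. The 4 groups were P6 Kir2.1, P6 control, P3 Kir2.1 and P3 control, each with 4 pools, and every group carries the EYFP plasmid and its ubiquitous CAG promoter. Cells were picked by hand under fluorescence, their cDNA was amplified by 30 cycles of PCR, and cells positive for EYFP and pcdh21 (Cdhr1) were pooled by 10, so each group held 40 cells. The number of animals behind the pools was not stated, so each p-value reflects only how pools of a group spread, and some of that spread may be technical.

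The active zone is the patch of presynaptic membrane where synaptic vesicles dock and fuse. RIM proteins (Rims genes) bind Rab3 on vesicles, recruit Munc13 (Unc13 genes) and tether calcium channels, while ELKS proteins (Erc genes), Bassoon (Bsn), Piccolo (Pclo) and liprin-alpha (Ppfia genes) form the surrounding meshwork. Mitral cells release glutamate both from their axons in olfactory cortex and from their dendrites inside the bulb, where they contact interneurons.

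A promoter window, from 250 bases before to 50 bases after the start of the gene, was available here from RefSeq (GRCm38.p6) for 9 of the 10 genes. The gene without a window was Rims2, so the motif counts below do not cover it. The windows of the ELKS pair are shown because Erc2 was one of the genes that changed and Erc1, its closest relative, did not pass in any comparison. The Erc2 window is chr14:27622157-27622456 on the plus strand and the Erc1 window is chr6:119848101-119848400 on the minus strand. Each is printed 5′ to 3′. Capitals mark the AP-1 motif TGANTCA in Erc2, which begins at base 200 of the window, and the cAMP response element half-site TGACG in Erc1, which begins at base 242.
Erc2: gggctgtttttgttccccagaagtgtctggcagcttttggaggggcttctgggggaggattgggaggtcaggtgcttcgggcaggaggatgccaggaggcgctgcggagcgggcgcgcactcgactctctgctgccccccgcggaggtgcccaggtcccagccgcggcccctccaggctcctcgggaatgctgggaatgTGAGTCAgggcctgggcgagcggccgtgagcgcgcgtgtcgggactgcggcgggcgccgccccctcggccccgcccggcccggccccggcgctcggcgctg
Erc1: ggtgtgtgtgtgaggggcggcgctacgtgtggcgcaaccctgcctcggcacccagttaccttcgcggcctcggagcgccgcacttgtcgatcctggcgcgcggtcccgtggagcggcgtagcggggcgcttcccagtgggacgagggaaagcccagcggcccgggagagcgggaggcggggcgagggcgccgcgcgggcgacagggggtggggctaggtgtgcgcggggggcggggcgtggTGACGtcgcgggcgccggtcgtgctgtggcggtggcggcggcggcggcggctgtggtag
Counted on both strands, TGANTCA was in 7.81% of 32851 such windows and in 1 of the 9 windows of the scaffold genes (Erc2). The half-site TGACG was in 20.8% of all windows and in 3 of the 9 (Erc1, Unc13a and Ppfia3). The full element TGACGTCA, which contains the half-site, was in 1.79% of all windows and in 0 of the 9. The GC box GGGCGG was in 35.7% of all windows and in 8 of the 9, all but Bsn. These are matches of letters and carry no measurement of binding.

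Levels are given on a log2 scale with each array's 75th percentile set to 0, so a gene near 0 is bright and one near -9 lies close to background. For levels, sums and figures, this percentile is taken over the 12111 probes well above background on all 16 arrays, not over all probes. Of the 18 probes, 11 exceeded background clearly on all 16 arrays, and 15 did so on at least 4, the minimum for a test. This left 9 of the 10 genes tested, 4 of them with more than 1 tested probe. The probe with the highest mean stands for its gene, and levels of different probes are not compared with each other. On each array, the share of all probes well above background was 34.3% to 41.1%, and arrays correlated with each other at 0.764 to 0.881. All P6 arrays lay on one slide and scan and all P3 arrays on another, which means that an age difference and a slide difference cannot be told apart. Within each slide control pools lay in one row and Kir2.1 pools in the other, so treatment and row cannot be told apart. Cdhr1 lay between 2.25 and 3.94 in all pools, and its presence, though not its level, followed from the selection of cells. Of the 9 other mitral and tufted cell markers, 8 were well above background in at least 1 pool of every group, and Lhx5 was in none. RNA of other cell types was measured too. In P6 control pools the summed markers of astrocytes and radial glia (called astrocytes below) ran from 8.98 to 12.2, on a linear scale with the array's 75th percentile as 1. Those of interneurons ran from 2.25 to 7.62 and those of mitral and tufted cells from 8.95 to 15.2. These sums are over different probes, so they do not give the shares of RNA from each cell type. In pools of cells, fewer cells expressing a gene and less RNA per cell cannot be told apart.

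**Figure D1:**
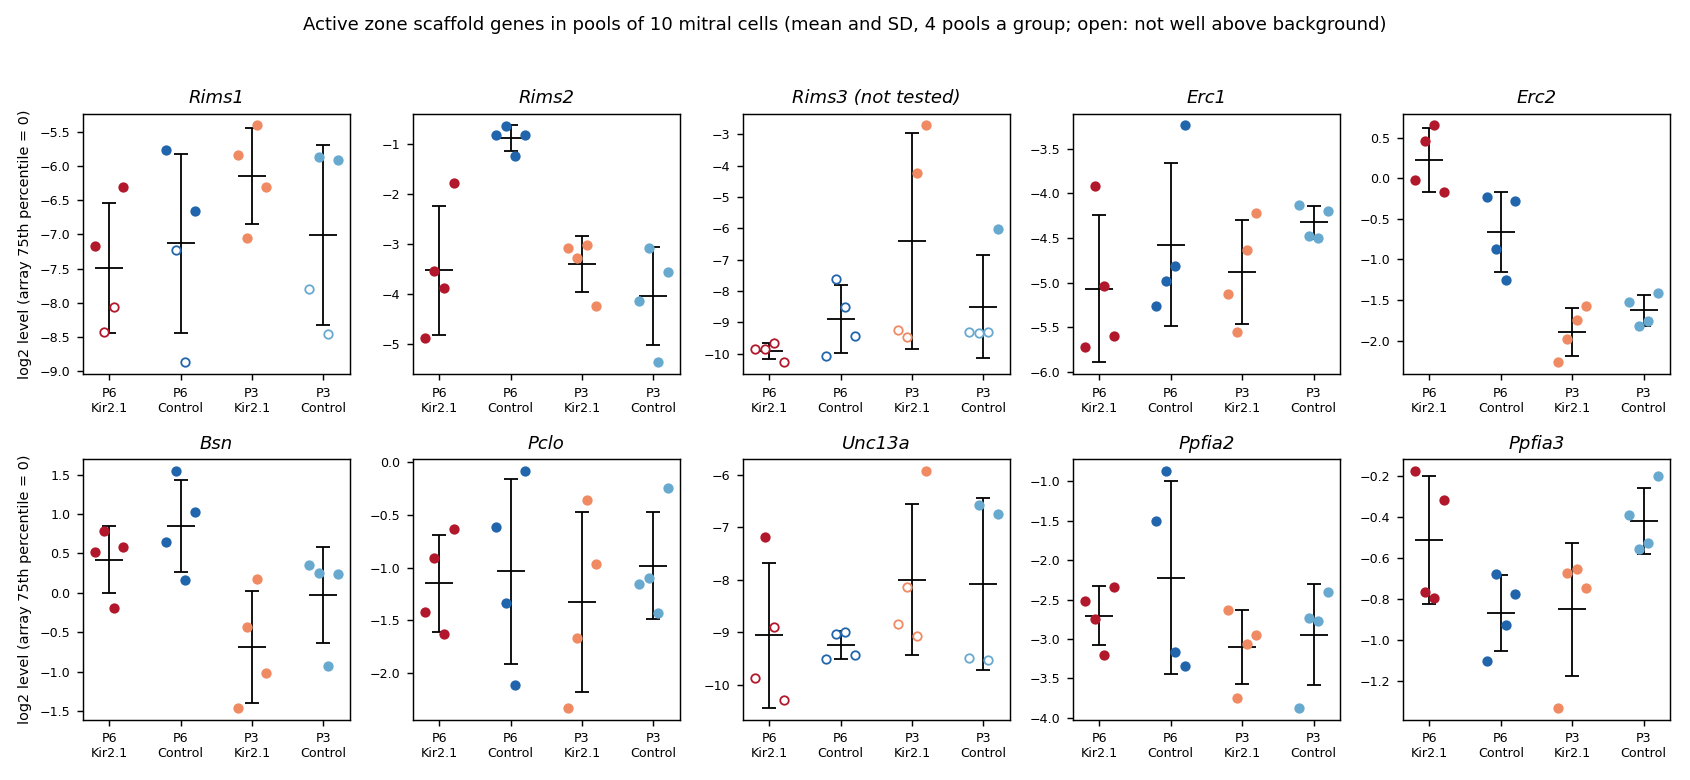
Log2 level of each scaffold gene (array 75th percentile = 0) in the 4 pools of each group, with group mean and SD; open points were not well above background and Rims3 was not tested. All 4 P6 control pools sit above all other pools for Rims2, and all 4 P6 Kir2.1 pools sit above all other pools for Erc2.

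Rims2, which encodes RIM2, rose with age in control cells and was lower in Kir2.1 than in control cells at P6. Its probe (A_55_P2166238) read -4.89, -3.54, -3.89 and -1.78 in the P6 Kir2.1 pools, against -0.80, -0.63, -1.23 and -0.82 in the P6 control pools. It read -3.07, -3.27, -3.03 and -4.23 in the P3 Kir2.1 pools, against -4.14, -3.09, -5.37 and -3.56 in the P3 control pools. The P6 control pools were the 4 highest of all 16, while the P6 Kir2.1 pools were spread over the range of the P3 pools and, in pool 4, above it.

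At P6, Rims2 was lower in Kir2.1 cells by 6.29-fold (change -2.65, SE 0.60, limma adjusted p = 0.0430). Means were -3.52 ± 1.30 in Kir2.1 cells and -0.87 ± 0.25 in control cells (SD, n = 4 each), and the groups did not overlap. It was the only 1 of the 9 tested scaffold genes past the threshold in this comparison, where 1.75% of all 21085 tested features passed and 0.892% of them all passed as lower. Rims2 and Erc2 were the 2 of 9 whose groups did not overlap, against 8.89% of all features. The call of Rims2 rests on the full set of pools: it remained only when P3 control pool 2 or 3, P3 Kir2.1 pool 4 or P6 Kir2.1 pool 4 was the pool left out, and ended without each of the other 12 (adjusted p up to 0.0958), while the change stayed between -3.23 and -2.20. It also ended under 5 of 14 other settings, among them a limma fit on the P6 arrays alone, where the adjusted p was 0.205.

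In control cells, Rims2 rose with age by 8.97-fold (change 3.16, SE 0.60, limma adjusted p = 0.0152), to -0.87 ± 0.25 at P6, against -4.04 ± 0.98 at P3 (SD, n = 4 each). It was the 1 of 9 scaffold genes called with age in control cells, where 2.59% of all features were called, 1.34% as higher and 1.25% as lower. This call held with each of the 16 pools left out in turn, with adjusted p up to 0.0480. In Kir2.1 cells, means were -3.52 ± 1.30 at P6 and -3.40 ± 0.56 at P3 (SD, n = 4 each), a change of -0.13 (SE 0.60, limma adjusted p = 0.946). The sign of that change turned under 3 other settings and without P6 Kir2.1 pool 1, within -0.71 to 0.33 over the left-out pools. The difference between both age changes, the interaction, was -3.29 (SE 0.85, limma adjusted p = 0.159, unadjusted p = 0.00172) and did not pass, so a different age course of Rims2 in Kir2.1 and control cells was not established. At P3, the change with Kir2.1 was 0.64 (SE 0.60, limma adjusted p = 0.917), with overlapping groups. The comparisons of P6 control with P6 Kir2.1 pools and with P3 control pools share the P6 control pools. The calls of Rims2 in both are therefore not independent.

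Interneuron markers moved with the same pools. Over 11 of 13 interneuron markers, summed on a linear scale with the array's 75th percentile as 1, the P6 Kir2.1 pools read 0.952, 2.69, 1.27 and 0.534, against 7.62, 4.22, 2.25 and 2.53 in the P6 control pools. The sums ran from 0.663 to 1.00 in P3 Kir2.1 pools and from 0.489 to 0.897 in P3 control pools. Of the 11 tested markers, 10 had a negative difference between Kir2.1 and control cells at P6, with 1 past the threshold (Penk, proenkephalin, limma adjusted p = 0.0269), and 10 had a positive age difference in control cells, with 3 past it. These were the transcription factor gene Meis2 (4.32, limma adjusted p = 0.00314) and the GABA synthesis genes Gad2 (6.87, 0.0158) and Gad1 (6.23, 0.0455). The Gad1 call ended without any of 12 of the 16 pools (adjusted p up to 0.120), the Gad2 call ended without P3 control pool 3 (0.0574), and the Penk call ended without any of 6 pools (up to 0.0612). Penk was not well above background in any P6 Kir2.1 pool and was in 3 P6 control pools. The P6 control mean lay 38.7-fold above the background limit of the P6 Kir2.1 pools (defined under processing). That mean includes the P6 control pool not well above background, so the fold is not a strict bound. Mean measured signals were -9.41 in Kir2.1 cells and -3.09 in control cells. Pax6 was not well above background in any P6 Kir2.1 pool either, and Calb2 was not in any P6 control pool. Astrocyte markers, 5 of 7 summed likewise, ran from 3.01 to 13.2 in P6 Kir2.1 pools, 8.98 to 12.2 in P6 control pools, 2.84 to 7.88 in P3 Kir2.1 pools and 1.13 to 3.07 in P3 control pools. Olfactory sensory neuron markers, 4 of 5 summed likewise, read 0.165 to 0.489 in P6 Kir2.1 pools, 0.330 to 1.99 in P6 control pools, 0.146 to 0.647 in P3 Kir2.1 pools and 0.0768 to 0.393 in P3 control pools. Microglia markers, 5 of 8, read 0.195 to 0.597, 0.424 to 1.15, 0.188 to 0.382 and 0.284 to 0.394 in the same 4 groups. The P6 control pools lay above the P3 control pools without overlap for interneurons, astrocytes and microglia, and 3 of the 4 did for olfactory sensory neurons. The P6 Kir2.1 pool 2 had a larger interneuron sum than P6 control pools 3 and 4 and a Rims2 level of -3.54, below their -1.23 and -0.82. Single markers differed in direction between these pools. Gad1 read -4.66 in that Kir2.1 pool, against -3.37 and -2.69 in P6 control pools 3 and 4. Gad2 read -3.44, against -2.47 and -1.61, and Penk read -9.85, against -7.16 and -3.80. Slc32a1, another of the markers, read -1.23, against -2.70 and -1.28. Without P6 control pools 1 and 2, which had the largest interneuron sums, the change of Rims2 was -2.50 with Kir2.1 at P6 (limma adjusted p = 0.135) and 3.01 with age in control cells (limma adjusted p = 0.0762), and both calls ended. The part of RNA from these other cell types in the Rims2 results was not tested.

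**Figure D2:**
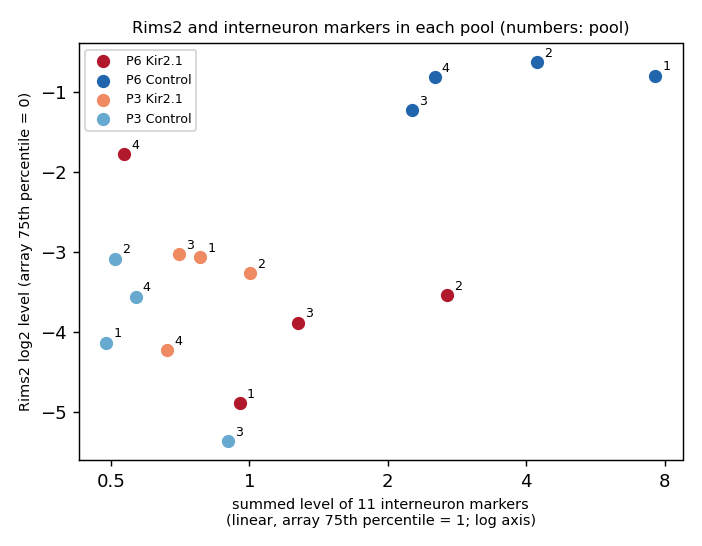
Log2 level of Rims2 (vertical axis, array 75th percentile = 0) against the summed level of 11 interneuron markers (horizontal axis, linear sum on a log axis) in each of the 16 pools, numbered by pool. The P6 control pools have the highest Rims2 levels at sums from 2.25 to 7.62, and P6 Kir2.1 pool 2, at a sum of 2.69, has a Rims2 level of -3.54. That pool has lower Gad1, Gad2 and Penk levels and a higher Slc32a1 level than P6 control pools 3 and 4.

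The other RIM genes were dim. Rims1, which encodes RIM1, read -7.17, -8.42, -8.06 and -6.31 in P6 Kir2.1 pools and -5.76, -7.23, -8.87 and -6.65 in P6 control pools. It read -5.84, -7.05, -5.40 and -6.30 in P3 Kir2.1 pools and -7.80, -5.87, -8.46 and -5.90 in P3 control pools, and it was well above background in 2 pools of each group except P3 Kir2.1, where all 4 were. No comparison of Rims1 passed. The widest was its age change in Kir2.1 cells, -1.34 (SE 0.75, limma adjusted p = 0.425). A further Rims1 probe was well above background on only 2 arrays, P3 Kir2.1 pools 3 and 4 (-6.23 and -4.15), and was not tested. By that probe, the mean of the P3 Kir2.1 pools lay 2.40-fold above the background limit of the P3 control pools. Against the limit of the P6 Kir2.1 pools it lay 3.09-fold above. Both are values without a test that rest on 2 bright pools. The other P3 Kir2.1 pools entered the mean at signals not well above background, so neither fold is a strict bound. Rims3, which encodes RIM3-gamma, a short RIM that lacks most domains of RIM1, was well above background on 3 arrays only, at -4.23 and -2.71 in P3 Kir2.1 pools 3 and 4 and at -6.01 in P3 control pool 4. In P6 Kir2.1 cells Rims3 was not well above background in any pool. The mean of the P3 Kir2.1 pools lay 4.48-fold above the background limit there, a value without a test that rests on 2 bright pools. That mean includes P3 Kir2.1 pools 1 and 2 (-9.23 and -9.46), which were not well above background, so the fold is not a strict bound.

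Erc2, which encodes ELKS2 (CAST), a neuronal ELKS protein that binds RIM1, Bassoon and liprin-alpha, rose with age in Kir2.1 cells by the probe that stands for the gene. That probe (A_55_P2026530) read -0.03, 0.45, 0.65 and -0.18 in P6 Kir2.1 pools, against -2.27, -1.98, -1.75 and -1.58 in P3 Kir2.1 pools. In control cells it read -0.23, -0.87, -1.25 and -0.29 at P6, against -1.53, -1.82, -1.76 and -1.41 at P3. All P6 pools lay above all P3 pools, and the P6 Kir2.1 pools were the 4 highest of the 16, although the gap to the highest P6 control pool was narrow.

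The age change of Erc2 in Kir2.1 cells was 4.35-fold (2.12, SE 0.29, limma adjusted p = 0.00796), with means of 0.22 ± 0.39 at P6 and -1.89 ± 0.30 at P3 (SD, n = 4 each). It was the 1 of 9 scaffold genes called in this comparison, against 0.877% of all features, 0.403% called higher. The groups did not overlap for Erc2 alone among the 9, against 10.5% of all features. The call held with each pool left out (adjusted p up to 0.0263). In control cells the change was 0.97 (SE 0.29, limma adjusted p = 0.0914), which did not pass with all pools and passed without P6 control pool 3 (1.17, limma adjusted p = 0.0485). At P6, Erc2 was at 0.22 ± 0.39 in Kir2.1 cells and -0.66 ± 0.49 in control cells (SD, n = 4 each), a difference of 0.88 (SE 0.29, limma adjusted p = 0.129) that did not pass, although the groups did not overlap. At P3 the difference was -0.26 (SE 0.29, limma adjusted p = 0.926), and the interaction was 1.15 (SE 0.40, limma adjusted p = 0.313). The comparisons of P6 Kir2.1 with P6 control pools and with P3 Kir2.1 pools share the P6 Kir2.1 pools. Mitral and tufted cell markers, 9 of 10 summed as above, ran from 16.2 to 24.1 in P6 Kir2.1 pools, 8.95 to 15.2 in P6 control pools, 11.6 to 15.7 in P3 Kir2.1 pools and 12.6 to 18.1 in P3 control pools. The sum includes Cdhr1, on which the cells were selected, at log2 levels of 3.41 to 3.94 in P6 Kir2.1 pools. Between Kir2.1 and control cells at P6, 7 of the 9 markers had a positive difference (median 0.66). With age in Kir2.1 cells, 3 had a positive and 6 a negative difference (median -0.63). At P6, Reln (reelin) was the 1 of the 9 that passed between Kir2.1 and control cells, and with age in Kir2.1 cells it was Tbx21 (2.15, limma adjusted p = 0.0461). Their part in the Erc2 result was not tested.

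The second Erc2 probe (A_55_P2026535), which the array design ties to the same transcript, did not show this age change. It read -3.11, -2.91, -3.40 and -2.97 in P6 Kir2.1 pools, against -3.29, -2.37, -2.30 and -2.29 in P3 Kir2.1 pools. In control cells it read -3.95, -3.72, -3.12 and -3.62 at P6, against -3.60, -3.67, -3.38 and -3.19 at P3. The groups overlapped in both cases. Fitted probe by probe over 24026 probes, its age change was -0.53 in Kir2.1 cells (SE 0.28, limma adjusted p = 0.397) and -0.14 in control cells (SE 0.28, limma adjusted p = 0.843). With the mean of both probes, the age change of Erc2 in Kir2.1 cells was 0.79 and did not pass (limma adjusted p = 0.123), and with the first probe in a fit on the Kir2.1 arrays alone the change stayed at 2.12 and did not pass (limma adjusted p = 0.0629). Between Kir2.1 and control cells, the difference of the second probe was 0.90 at P3 (SE 0.28, limma adjusted p = 0.542) and 0.50 at P6 (SE 0.28, limma adjusted p = 0.372), with a mean over both ages of 0.70 (SE 0.20, limma adjusted p = 0.120), none of which passed. Counting every probe on its own, the 3 calls among the scaffold genes were again Rims2 at P6, Rims2 with age in control cells and Erc2 with age in Kir2.1 cells, where 1.6%, 2.3% and 0.832% of the probes were called.

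**Figure D3:**
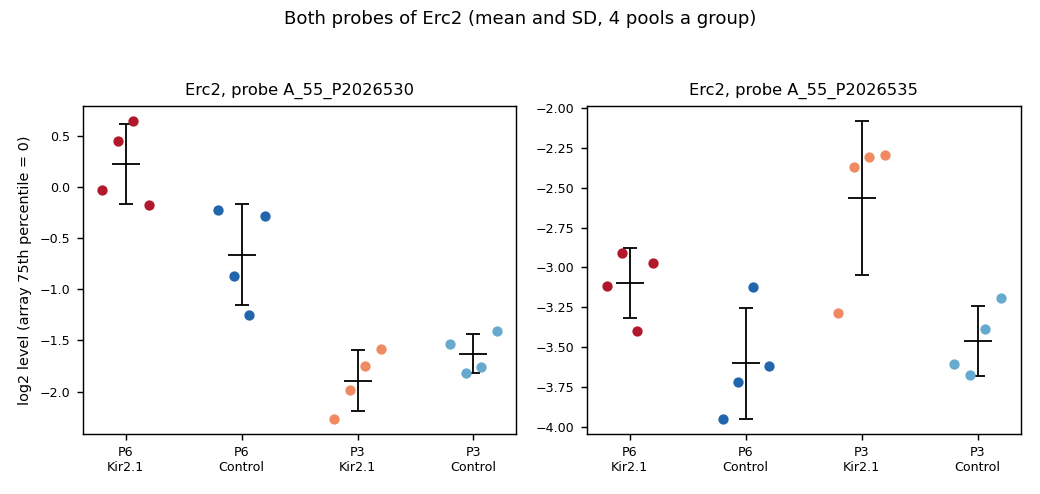
Log2 level (array 75th percentile = 0) of both Erc2 probes in the 4 pools of each group, with group mean and SD. The probe on the left is higher in all P6 pools than in all P3 pools, and the probe on the right is not.

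Erc1, which encodes ELKS1, the more widely expressed ELKS protein, read -5.72, -3.91, -5.04 and -5.60 in P6 Kir2.1 pools and -5.26, -4.99, -4.82 and -3.24 in P6 control pools. It read -5.12, -5.55, -4.64 and -4.22 in P3 Kir2.1 pools and -4.13, -4.48, -4.50 and -4.19 in P3 control pools. The groups overlapped in every comparison, and the changes ran from -0.56 (Kir2.1 against control at P3, SE 0.48, limma adjusted p = 0.913) to -0.19 (P6 against P3 in Kir2.1 cells, SE 0.48, limma adjusted p = 0.897). A second tested Erc1 probe, tied to another transcript, switched between background and well above it from pool to pool, with SDs over 4 pools of 1.72 to 2.23 and SEs of 1.38 on its changes. Its means were -7.32 in P6 Kir2.1, -5.35 in P6 control, -8.38 in P3 Kir2.1 and -7.45 in P3 control pools. They were higher at P6 than at P3 in both cell groups, opposite in sign to the first probe, and no comparison of this second probe passed. A further probe was below background on all 16 arrays.

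Bsn, which encodes Bassoon, a giant protein that anchors vesicles near the active zone, read 0.52, 0.78, -0.19 and 0.58 in P6 Kir2.1 pools against -1.46, -0.43, 0.17 and -1.02 in P3 Kir2.1 pools. In control cells it read 0.65, 1.54, 0.16 and 1.02 at P6 against 0.36, 0.25, -0.93 and 0.24 at P3. The P6 values were mostly above the P3 values, but the groups overlapped in both cell groups. The age change was 1.11 in Kir2.1 cells (SE 0.42, limma adjusted p = 0.234) and 0.87 in control cells (SE 0.42, limma adjusted p = 0.303), and neither passed. With Kir2.1 the difference was -0.42 at P6 (SE 0.42, limma adjusted p = 0.644) and -0.66 at P3 (SE 0.42, limma adjusted p = 0.847).

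Pclo encodes Piccolo, the structural relative of Bassoon. Its probe A_55_P2014755 read -1.42, -0.91, -1.63 and -0.63 in P6 Kir2.1 pools, -0.62, -1.33, -2.11 and -0.09 in P6 control pools, -2.33, -1.66, -0.36 and -0.96 in P3 Kir2.1 pools and -1.15, -1.10, -1.43 and -0.25 in P3 control pools. The pools of a group spread over more than any group difference, and the 4 changes lay between -0.35 and 0.18 (SE 0.49, limma adjusted p from 0.902 to 0.972). Of its 3 other probes, A_55_P2014750 had the widest change. It read -1.78, -3.69, -2.89 and -2.22 in P6 Kir2.1 pools, against -4.30, -4.52, -3.63 and -4.50 in P3 Kir2.1 pools, where the groups met at P6 pool 2. That age change was 1.59 (SE 0.52, limma adjusted p = 0.174) in Kir2.1 cells and 0.90 (SE 0.52, limma adjusted p = 0.394) in control cells, and neither passed. Probe A_55_P2058143 had changes of 0.06 and 0.28 in the same comparisons (SE 0.30 each), and neither passed. Probe A_52_P336904 was well above background on 2 or 3 of the 4 pools of each group, and its changes had an SE of 1.16 and did not pass.

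Unc13a, which encodes Munc13-1, the protein that makes docked vesicles ready for fusion, was close to background. Its probe was well above background in 1 P6 Kir2.1 pool (-7.18), 0 P6 control pools, 1 P3 Kir2.1 pool (-5.93) and 2 P3 control pools (-6.57 and -6.74). In control cells the P3 mean lay 1.34-fold above the background limit of the P6 pools. It includes P3 pools not well above background, so the fold is not a strict bound. Mean measured signals in control cells were -9.24 at P6 and -8.08 at P3 (limma adjusted p = 0.532). In Kir2.1 cells the change with age was -1.06 (SE 0.88, limma adjusted p = 0.620). Neither age difference passed at this low signal.

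The liprin-alpha genes passed in no comparison. Ppfia2 (liprin-alpha-2) read -2.52, -2.75, -3.20 and -2.34 in P6 Kir2.1 pools, -1.50, -0.87, -3.17 and -3.34 in P6 control pools, -2.64, -3.75, -3.07 and -2.96 in P3 Kir2.1 pools and -3.87, -2.74, -2.77 and -2.40 in P3 control pools. P6 control pools 1 and 2 were the highest of all 16. The difference with Kir2.1 at P6 was -0.48 (SE 0.52, limma adjusted p = 0.675) with all pools and 0.55 (limma adjusted p = 0.594) without those pools, which also had the largest interneuron marker sums. Ppfia3 (liprin-alpha-3), which with liprin-alpha-2 is a neuronal member of the family, read -0.18, -0.76, -0.79 and -0.32 in P6 Kir2.1 pools, -1.10, -0.68, -0.93 and -0.77 in P6 control pools, -1.33, -0.67, -0.65 and -0.75 in P3 Kir2.1 pools and -0.39, -0.56, -0.53 and -0.20 in P3 control pools. The P3 control pools lay above the P3 Kir2.1 pools and above the P6 control pools without overlap, by small distances. The change was -0.43 with Kir2.1 at P3 (SE 0.23, limma adjusted p = 0.821) and -0.45 with age in control cells (SE 0.23, limma adjusted p = 0.330), and the interaction was 0.79 (SE 0.33, limma adjusted p = 0.398). The second Ppfia3 probe (A_55_P2101367) had changes of -0.27 (SE 0.33) and 0.05 (SE 0.33) in those comparisons.

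At P3, 0 of the 9 scaffold genes passed with Kir2.1, and 0 had an unadjusted p under 0.05 in limma, where 0.00949% of all features passed and 6.54% had such a p. Groups did not overlap for 1 of the 9 (Ppfia3) at P3, against 6.77% of all features, and for 3 of the 9 (Rims2, Erc2 and Ppfia3) with age in control cells, against 12.7%. The median change over the 9 genes was -0.36 with Kir2.1 at P6 and -0.26 at P3, against -0.13 and -0.03 over all features. With age it was 0.18 in Kir2.1 cells and -0.05 in control cells, against -0.16 and -0.07 over all features. The mean effect of Kir2.1 over both ages and the interaction passed for 0 of the 9, where 0.692% and 0.0901% of all features passed, and 1 and 3 of the 9 had an unadjusted p under 0.05, against 13.5% and 10.7% of all features. The calls came from 2 genes: Rims2 in control cells with age and between treatments at P6, and Erc2 in Kir2.1 cells with age. Both calls of Rims2 share the P6 control pools.

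**Figure D4:**
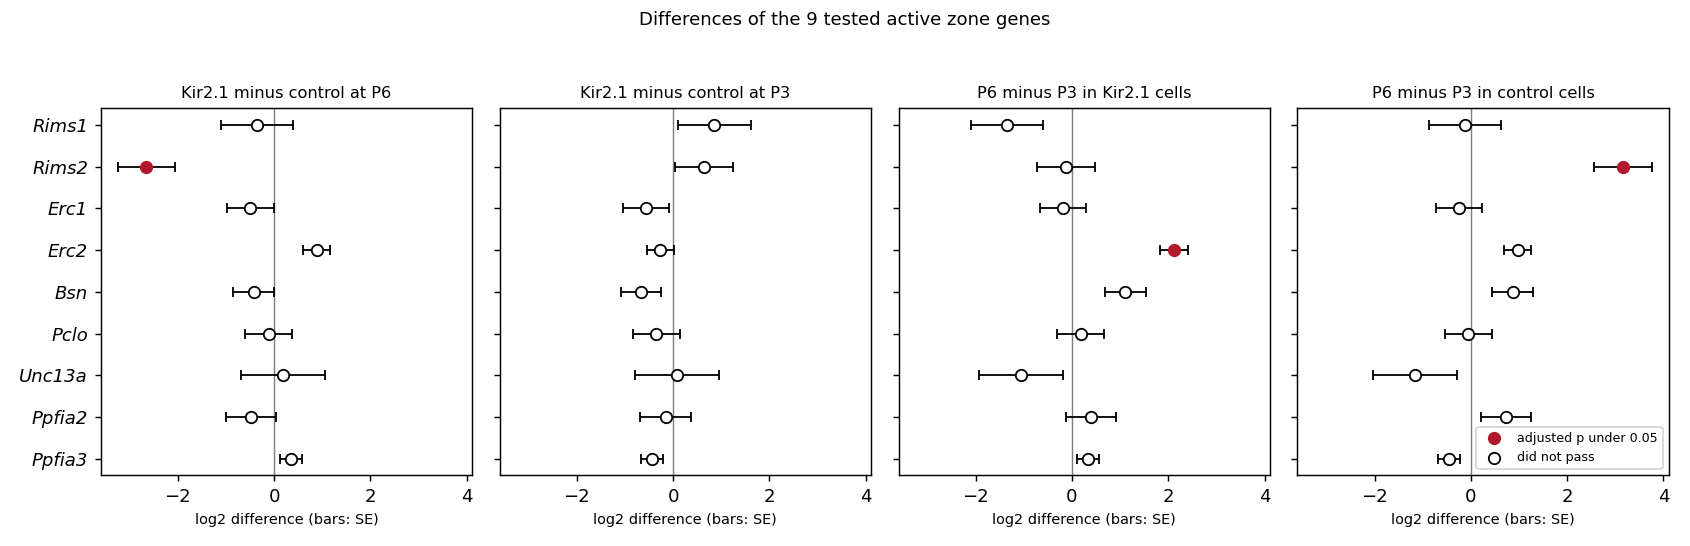
Log2 differences with SE of the 9 tested scaffold genes in 4 comparisons, with filled points for those past an adjusted p of 0.05. Rims2 passed at P6 (-2.65) and with age in control cells (3.16), and Erc2 passed with age in Kir2.1 cells (2.12).

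The proteins that work with this scaffold were described from 5 lists: other RIM, Munc13 and liprin genes, RIM and liprin partners, the release machinery, presynaptic calcium channels and vesicle proteins. Of 6 tested genes of the same families, 0 passed in any comparison in limma, and 2 had an unadjusted p under 0.05 with age in each cell group, against 15% of all features in Kir2.1 cells and 17.9% in control cells. The nearest was Ppfia4 (liprin-alpha-4), which had a change of 1.43 with age in Kir2.1 cells (SE 0.47, limma adjusted p = 0.168) and 1.10 in control cells (SE 0.47, limma adjusted p = 0.235). With age in control cells, 1 of 25 partners, 2 of 16 release genes and 3 of 11 vesicle protein genes rose and 1 of 7 calcium channel genes fell, against 1.34% of all features called higher and 1.25% called lower. An unadjusted p under 0.05 was reached in control cells by 9 partners, 7 release genes, 6 vesicle protein genes and 2 calcium channel genes, against 17.9% of all features. In Kir2.1 cells, 0 genes of these 4 lists passed with age in limma, where only 0.877% of all features passed. Such an unadjusted p was reached there by 5 partners, 4 release genes, 4 vesicle protein genes and 1 calcium channel gene, against 15% of all features. At P6, 1 vesicle protein gene passed with Kir2.1, where 1.75% of all features passed. An unadjusted p under 0.05 was reached by 8 partners, 3 release genes, 4 vesicle protein genes and 2 calcium channel genes, against 17.5% of all features. At P3, 0 genes of the 5 lists passed with Kir2.1 in limma, where 0.00949% of all features passed. An unadjusted p under 0.05 was reached by 1 partner, 2 release genes, 1 calcium channel gene and 1 vesicle protein gene, against 6.54% of all features. The median age change was 0.39 in Kir2.1 cells and 0.70 in control cells over the release genes, and 0.55 and 0.95 over the vesicle protein genes. It was 0.78 and 0.68 over the calcium channel genes and 0.14 and 0.23 over the partners, against -0.16 and -0.07 over all features.

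In control cells, Apba1 (Mint1, an adaptor that binds Munc18) rose by 3.40 (SE 0.54, limma adjusted p = 0.00597), against a change of 1.17 in Kir2.1 cells (limma adjusted p = 0.334). Snap25, the plasma membrane SNARE, rose by 1.24 in control cells (SE 0.19, limma adjusted p = 0.00430), against 0.02 in Kir2.1 cells (limma adjusted p = 0.976). Syt1, the calcium sensor of release, rose by 1.14 in control cells (SE 0.22, limma adjusted p = 0.0174), against 0.35 in Kir2.1 cells (limma adjusted p = 0.511). Cacnb3, a calcium channel beta subunit, fell by 1.13 in control cells (SE 0.26, limma adjusted p = 0.0382), against a change of -0.08 in Kir2.1 cells (limma adjusted p = 0.913).

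The vesicle proteins Syp (synaptophysin), Syn2 (synapsin II) and Synpr (synaptoporin) rose with age in control cells by 1.80, 3.91 and 2.02 (limma adjusted p = 0.00193, 0.00314 and 0.0158), against 0.89, 2.30 and 0.70 in Kir2.1 cells (limma adjusted p = 0.0736, 0.0735 and 0.424). The interaction passed for none of these 7 genes in limma, with adjusted p from 0.0976 (Snap25) to 0.488 (Syn2), so a difference between both age changes was not established. At P6, Syp was lower in Kir2.1 cells by 1.07 on the log2 scale (change -1.07, SE 0.21, limma adjusted p = 0.0269), at 1.92 ± 0.23 in Kir2.1 cells and 2.99 ± 0.18 in control cells (SD, n = 4 each). Both calls of Syp share the P6 control pools. Over both ages, Syngr3 (synaptogyrin-3) was higher in Kir2.1 cells by 1.21 (limma adjusted p = 0.0432), where 0.408% of all features were called higher. The age calls of Apba1, Snap25, Syp and Syn2 held without any one pool, while those of Syt1 ended without P3 control pool 1 or 3 or P6 control pool 4 (adjusted p up to 0.0616) and those of Synpr without P3 control pool 3 or 4 (up to 0.0572). The call of Cacnb3 ended without any one control pool except P6 control pool 1 (up to 0.0977), that of Syp at P6 without P6 control pool 4 or P6 Kir2.1 pool 2, 3 or 4 (up to 0.0693), and that of Syngr3 without 12 of the 16 pools (up to 0.0898). Markers of interneurons, astrocytes, microglia and olfactory sensory neurons were higher in most P6 control than P3 control pools, as given beside Rims2. Oligodendrocyte lineage sums overlapped, at 1.43 to 5.76 in P6 control and 0.570 to 3.94 in P3 control pools. Vascular and blood cell sums ran from 0.576 to 3.81 in P6 Kir2.1 pools, 0.765 to 1.37 in P6 control pools and 0.816 to 1.02 in P3 control pools. The part of these cell types in the partner results was not tested. Without P6 control pools 1 and 2, the age calls of Syt1 (1.10, limma adjusted p = 0.0747), Synpr (1.95, 0.0735) and Cacnb3 (-1.25, 0.0646) and the P6 call of Syp (-1.15, 0.0573) ended, and the age calls of Apba1, Snap25, Syp and Syn2 remained. The age call of Synpr also ended with the mean of its 2 probes (1.87, limma adjusted p = 0.138). In a limma fit on the control arrays alone, the age calls of Snap25 (adjusted p = 0.0601), Syt1 (0.0982), Synpr (0.0511) and Cacnb3 (0.126) ended. Those of Apba1, Syp and Syn2 remained there. In a limma fit on the P6 arrays alone, the P6 call of Syp ended (adjusted p = 0.211). It also ended in limma with scaling over all probes (adjusted p = 0.0718), the deposited value table (0.0660) and array weights (0.0603). The Cacnb3 call ended in limma with scaling over all probes (adjusted p = 0.0522), the value table (0.0510) and no filter on dim probes (0.0695). Without that filter the Syngr3 call ended too (limma adjusted p = 0.0772).

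**Figure D5:**
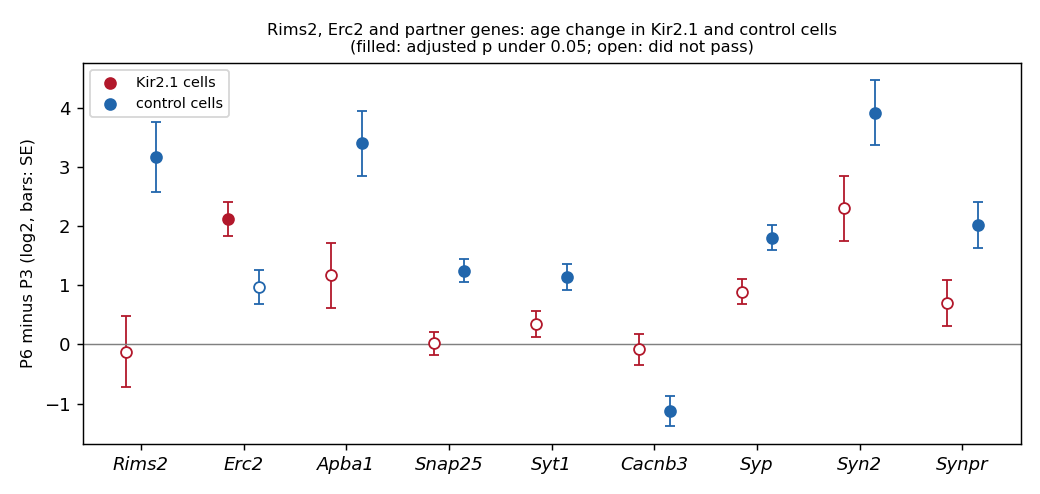
Change from P3 to P6 (log2, with SE) of Rims2, Erc2 and the 7 partner genes called in control cells, with Kir2.1 cells left of control cells for each gene and filled points past an adjusted p of 0.05. The partner genes and Rims2 are shown because they passed in control cells and Erc2 because it passed in Kir2.1 cells, so which points are filled follows from that choice; the changes in Kir2.1 cells run from -0.13 for Rims2 to 2.30 for Syn2.

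Across the 16 arrays, which share the 4 groups, the named genes whose levels followed Rims2 most closely were Gm5434 (Pearson r = 0.858, Spearman rho = 0.821), Lrrc4b (r = 0.853) and Rasal1 (0.848 and 0.568). For Erc2 they were Raver2 (r = 0.886, rho = 0.847), Tmed8 (0.884 and 0.844) and Rusc2 (0.879 and 0.876). Rims2 and Erc2 themselves had r = 0.184 and rho = 0.0882 with each other. Bsn had r = 0.574 with Rims2 and 0.561 with Erc2. These are descriptions over arrays that share group, slide and scaling.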

How the data were processed

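Single mitral cells were picked and amplified, and pools of 10 cells were hybridised to 1-colour Agilent arrays, 4 pools in each of 4 groups. The deposited spot intensities were extracted and background-subtracted with Agilent Feature Extraction 10.7.3.1, per the file headers. The authors' deposited value table holds the processed signal as a ratio to the 75th percentile over all gene spots of the array, since its values were 0.997 to 1.004 times that quotient of the scanner signals. It is linear and not centred, with column medians of 0.0337 to 0.12, and served as an alternative.

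Control and outlier spots were left out, which removed 83 of 55681 probes, and spots of a probe were averaged. Of these probes, 28079 carried a RefSeq accession and 26546 of them matched a symbol. Log2 processed signals were centred on the 75th percentile over the 12111 probes well above background on all 16 arrays. Features well above background on at least 4 arrays were tested, with the probe of highest mean for each gene: 12050 named genes and 9035 unnamed probes. One limma model (limma 3.58.1, R 4.3.3) of the 4 groups, with 12 residual degrees of freedom and an empirical Bayes prior worth 1.64 more at an SD of 0.64, gave all contrasts, and p-values were adjusted by Benjamini-Hochberg over 21085 features, with 0.05 as threshold. The number of arrays limits precision, and 0 gene spots were saturated. A probe not well above background in a whole group has only a bound there. For such a probe, the mean of the bright group was set against a background limit. This limit was the lowest signal well above background on each dim array, or the probe's own signal if higher. Pools of the bright group that were not well above background entered its mean at their own signal, so the folds are not strict bounds.

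The genes and lists were chosen with earlier results of these data known. All 10 scaffold genes are named with every probe. Of the other lists, genes past the threshold and otherwise up to 4 with the lowest p qualified, and for each called scaffold gene the 3 genes most correlated with it. Deviations of pools with the same number correlated between -0.0282 and 0.0305, so the numbers do not pair pools. Alternatives were background correction by normexp on the median signal (offset 50), other scalings, filters, probe rules, floors and variance models, a replicate block, fits on the groups compared only and each pool left out.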

Additional observations from a re-analysis of the deposited data

Results flagged for a closer look

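In 4 of 72 combinations of probe and group, 1 of the 4 pools lay far from the others by Dixon's criterion. Chance marks about 1 in 20 groups this way. Rims3 was at -6.01 in P3 control pool 4, where the nearest other pool was at -9.31 and pool 4 was the only one well above background. The second Erc2 probe (A_55_P2026535) was at -3.29 in P3 Kir2.1 pool 1, below the nearest other pool at -2.37. Bsn was at -0.93 in P3 control pool 3, below the nearest other at 0.24. Ppfia3 (A_55_P2156785) was at -1.33 in P3 Kir2.1 pool 1, below the nearest other at -0.75.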

How the results depend on the processing

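With each pool left out in turn, the number of scaffold genes called at P6 between Kir2.1 and control cells was 0 to 1, and with age in control cells 1 to 2. The P6 count, 1 in the reported fit, was 0 without a filter on dim probes, with array weights, with only the groups compared and without P6 control pools 1 and 2, an alternative chosen after seeing the data. That alternative also gave 0 with age in control cells. With age in Kir2.1 cells the count was 0 with the mean of the tested probes and with only the groups compared. Beyond the settings' own construction, the causes were not tested.

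As pool numbers do not pair the pools, the replicate block, added to the model as a term, is given here only. It gave 0 calls among the scaffold genes at P6 (Rims2, limma adjusted p = 0.0688) and kept Rims2 with age in control cells (0.0326) and Erc2 with age in Kir2.1 cells (0.0271). Over all features its counts were 183 at P6, 326 with age in control cells, 53 with age in Kir2.1 cells and 80 for the mean over ages, where the reported fit gave 370, 546, 185 and 146.

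Of 40 gene and comparison results under up to 30 settings, 14 turned sign at least once, all of them results that did not pass. At P3, Erc2 became 0.32 with the mean of its probes, and Unc13a became -0.058 with normexp, -0.41 with the value table and -0.46 with a floor. At P6, Pclo became 0.10 with scaling over all probes and 0.092 with the value table, and Unc13a -0.29 with normexp. Without P6 control pools 1 and 2, Rims1 and Ppfia2 became 0.27 and 0.55 at P6, and Erc1 and Ppfia2 became 0.30 and -0.31 with age in control cells. With the mean of tested probes, the age change in control cells was 0.93 for Erc1 and 0.17 for Pclo, and 0.041 for Pclo with array weights. In Kir2.1 cells the age change of Rims2 was 0.043 with scaling over all probes, 0.030 with the value table and 0.078 with array weights, and that of Erc1 was 0.44 with the mean of probes. With pools left out, Kir2.1 differences spanned -0.61 to 0.59 (Unc13a) and -0.46 to 0.061 (Ppfia2) at P3, and -0.94 to 0.093 (Rims1), -0.47 to 0.20 (Pclo) and -0.44 to 0.59 (Unc13a) at P6. Age changes spanned -0.61 to 0.46 (Rims1) and -0.37 to 0.30 (Pclo) in control cells, and -0.71 to 0.33 (Rims2), -0.57 to 0.036 (Erc1) and -0.15 to 0.50 (Pclo) in Kir2.1 cells.

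Scaling over all probes moved the median of all features at P6 to 0.09, against -0.13, and gave 269 of 376 calls as higher, against 182 of 370. With age in Kir2.1 cells it gave 90 of 140 calls as higher, against 85 of 185, and for the mean over ages 158 of 208, against 86 of 146. Calls at P6 numbered 20 with only the groups compared, 157 with array weights, 193 without a filter, 633 with a variance trend and 708 with normexp. With age they numbered 181 to 884 in control cells and 24 to 259 in Kir2.1 cells, where a fit of only the groups compared gave the lowest counts and a variance trend the highest. At P3 they numbered 0 to 25, where the reported fit gave 2, for the mean over ages 70 (without P3 control pool 2) to 343, and for the interaction 9 to 100, where the reported fit gave 19. Dim probes (Rims1, Rims3, Unc13a) are limited by their signal over background.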
